A study of Mus musculus with 24 samples.

Results

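In germinal centre (GC) B cells of the mouse spleen, 280 distal accessible regions had lost signal in both genotypes with heterozygous deletion of Kmt2d. In the genotype with heterozygous deletion of Crebbp alone, their mean signal was within 0.1 log2 unit of wild type, a range set by the choice. These regions were chosen by their measured accessibility in the 4 genotypes. A region was a member if it lay on an autosome more than 1 kb from every annotated transcription start site (TSS), had a mean of at least 3 CPM (fragment counts scaled to the library's total in peaks) in WT, a log2 ratio to WT of -0.4 or less in both K and CK, and a log2 ratio between -0.1 and 0.1 in C, where 0.1 CPM was added to each mean. Of 65483 peaks in the table, 22696 were eligible, meaning autosomal, distal and at the WT minimum, and 280 of those (1.23%) met the rule. The ratios of K, CK and C to WT that follow therefore describe the choice and are given with no test, and all of them share the same WT mice.

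Accessible chromatin was measured by ATAC-seq, in which a transposase inserts sequencing adapters into open DNA, with 1 library per mouse. GC B cells were sorted from spleens of 8-week-old C57BL/6J mice on day 10 after injection of sheep red blood cells (SRBC), and 4 WT, 4 C, 4 K and 5 CK libraries were compared. The WT mice carried the Cg1-Cre allele alone, C mice also carried 1 floxed Crebbp allele, K mice 1 floxed Kmt2d allele, and CK mice 1 of each, so that all 4 genotypes share the Cre. Cg1-Cre is driven by the promoter of an immunoglobulin constant region and acts in B cells once they are activated, the second allele of each target gene stayed intact, and the deletion can be present only in cells in which Cre had acted. The libraries held 17483706 to 21857738 fragments in peaks, and a member held 36 to 1212 fragments in a single WT library. The 4 peaks over Kmt2d summed to 125.9 ± 1.56 CPM in WT (SD, n = 4) and 127.1 ± 2.29 in K (SD, n = 4), so accessibility at the targeted gene gave no check of the labels. All 14 GC B cell marker genes had a promoter peak, as did 8 of 14 T cell markers (Cd2 at 113.6, Gata3 at 60.5, Cd3d at 28.2 and Lck at 27.5 CPM in WT among them), 6 of 12 myeloid markers (Cd68 at 32.6 CPM) and 5 of 6 plasma cell markers. The T cell genes Cd3e, Cd3g, Cd4, Cd8a, Cd8b1 and Trac, the myeloid genes Itgam, Lyz2, Csf3r, Mpo, S100a8 and S100a9 and the plasma cell gene Tnfrsf17 had none. The summed promoter signal of the 14 T cell markers ranged from 250.3 CPM in CK to 262.6 CPM in WT as genotype means, that of the 12 myeloid markers from 67.9 CPM in WT to 73.1 CPM in CK, and that of the 6 plasma cell markers from 292.5 CPM in WT to 302.5 CPM in K. Their part in the results was not tested. Although the mice are described as female, 9 libraries carried 73.8 to 85.2 CPM over 11 peaks of the Y chromosome and the other 8 carried at most 0.0558 CPM. Libraries of both kinds were present in every genotype (WT replicates 1 and 2, C replicates 1 and 2, K replicates 1, 3 and 4, and CK replicates 1 and 4 had the Y signal), and results are given below for both.

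KMT2D is a histone methyltransferase that places monomethylation on lysine 4 of histone H3, the mark of poised and active enhancers, and CREBBP is an acetyltransferase that acetylates histones at enhancers, including lysine 27 of histone H3. Enhancers are distal regulatory elements bound by transcription factors, and in GC B cells they control the moves between the dark zone, the light zone and exit to memory or plasma cells. Both enzymes are among the chromatin regulators most often mutated in follicular and diffuse large B-cell lymphoma. In bulk libraries, fewer cells with an open region and less opening per cell cannot be told apart.

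Of the 21 members named here by rule, 16 held a match to at least 1 of the motifs searched, and the sequences of 6 of these are shown. The other 5, nearest to Naa25, Parm1, Bin2, Lax1 and Rgs1, held none. The first 3 of them were among the 10 largest losses at members whose K and CK mice all lay below the WT and C mice. Each is the 300 bases around the centre of the peak, on the plus strand of GRCm38 (mm10, RefSeq sequence), with matches to any of the 16 motifs searched in capitals and all other bases in lower case. The peak nearest to Grik3 was shown because it had the largest loss in K and CK together (chr4:125481384-125481683, matches to the extended PU.1/SPIB motif and to the E-box CACCTG). The peaks nearest to Vps8 (chr16:21358847-21359146) and Eci2 (chr13:35209062-35209361) each held 1 AP-1 match, and the Arpc2 peak (chr1:74248857-74249156) held AP-1, RUNX, ETS and E-box matches. The Susd6 peak (chr12:80815848-80816147) and the Wdr37 peak (chr13:8838877-8839176) held the octamer, the latter with E-box, NF-kB and CRE matches.
Grik3 peak: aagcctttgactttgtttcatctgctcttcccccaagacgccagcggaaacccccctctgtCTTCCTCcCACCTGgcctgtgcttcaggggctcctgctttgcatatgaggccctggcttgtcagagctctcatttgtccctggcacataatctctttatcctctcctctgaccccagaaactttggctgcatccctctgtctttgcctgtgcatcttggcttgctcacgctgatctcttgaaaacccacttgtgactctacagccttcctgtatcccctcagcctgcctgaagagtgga
Vps8 peak: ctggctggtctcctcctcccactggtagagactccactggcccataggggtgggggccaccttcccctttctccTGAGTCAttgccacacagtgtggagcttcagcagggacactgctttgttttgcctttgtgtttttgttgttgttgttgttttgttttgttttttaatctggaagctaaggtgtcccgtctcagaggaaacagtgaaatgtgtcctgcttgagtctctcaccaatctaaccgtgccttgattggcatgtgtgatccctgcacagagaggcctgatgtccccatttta
Eci2 peak: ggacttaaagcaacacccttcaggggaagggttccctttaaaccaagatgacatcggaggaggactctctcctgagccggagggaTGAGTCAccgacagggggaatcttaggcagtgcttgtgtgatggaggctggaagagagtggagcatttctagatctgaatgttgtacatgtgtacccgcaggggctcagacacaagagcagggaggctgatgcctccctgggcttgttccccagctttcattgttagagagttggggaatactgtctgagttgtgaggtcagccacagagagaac
Arpc2 peak: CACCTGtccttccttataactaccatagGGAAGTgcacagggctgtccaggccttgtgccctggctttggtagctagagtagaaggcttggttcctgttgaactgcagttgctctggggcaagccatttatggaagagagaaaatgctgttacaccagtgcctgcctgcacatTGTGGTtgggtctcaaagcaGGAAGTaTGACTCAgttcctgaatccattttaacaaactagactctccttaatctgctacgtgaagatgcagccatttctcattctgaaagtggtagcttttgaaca
Susd6 peak: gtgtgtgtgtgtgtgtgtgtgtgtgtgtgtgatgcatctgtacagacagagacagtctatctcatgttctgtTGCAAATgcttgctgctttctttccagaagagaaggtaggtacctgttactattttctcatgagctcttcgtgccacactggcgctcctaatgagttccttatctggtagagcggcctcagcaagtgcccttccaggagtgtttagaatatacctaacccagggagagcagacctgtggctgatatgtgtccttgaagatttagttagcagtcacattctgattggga
Wdr37 peak: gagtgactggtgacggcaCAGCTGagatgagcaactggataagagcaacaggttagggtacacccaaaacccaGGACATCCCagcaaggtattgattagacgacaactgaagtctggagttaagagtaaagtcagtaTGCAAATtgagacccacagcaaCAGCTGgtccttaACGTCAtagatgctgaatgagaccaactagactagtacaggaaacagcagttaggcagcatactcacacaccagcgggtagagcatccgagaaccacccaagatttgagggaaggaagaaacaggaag

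The loss was present in every K and CK mouse, with overlapping sizes in the 2 genotypes. The median log2 ratio of the 280 members to the WT mean was -0.70, -0.59, -0.48 and -0.47 in the 4 K mice and -0.65, -0.62, -0.43, -0.60 and -0.56 in the 5 CK mice. In the 4 C mice it was -0.10, -0.10, 0.02 and 0.05, and the 4 WT mice themselves lay at -0.11, -0.10, 0.06 and 0.12. No K or CK mouse came near the range of the WT and C mice, a separation that the choice itself favoured, and the K and CK mice overlapped each other. Over all eligible peaks the medians of the K and CK mice were -0.12 to -0.016. Between 272 and 280 members (97.1% to 100%) lay below the WT mean in each K and CK mouse, against 52.7% to 68.8% of eligible peaks. Summed over the members, the signal was 2419.8 ± 163.3 CPM in the WT mice and 2386.2 ± 146.8 CPM in the C mice (SD, n = 4 each). It was 1645.1 ± 119.4 CPM in the K mice (SD, n = 4) and 1619.9 ± 84.1 CPM in the CK mice (SD, n = 5).

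To measure a mouse that the choice had not used, the rule was applied without it and the peaks so chosen were read in it. Without 1 of the K mice the rule found 237 to 325 peaks, and their median log2 ratio in the mouse left out was -0.70, -0.54, -0.42 and -0.41. For the 5 CK mice left out in turn it was -0.64, -0.56, -0.38, -0.59 and -0.52. All 9 K and CK mice lay below all WT and C mice also when they were left out. For these 9 the WT mice stayed in both the choice and the ratio, so peaks high in WT were still favoured. Each mouse was also read at its own set of peaks, so these medians are not independent of the choice. For C mice left out the medians were -0.14, -0.15, -0.02 and 0.02, and for WT mice left out they were -0.20, -0.13, 0.02 and 0.06. Of the 280 members, 155 to 186 stayed in the set without 1 of the WT mice and 194 to 236 without 1 of the C mice, against 232 to 269 without 1 of the K mice and 250 to 267 without 1 of the CK mice.

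**Figure D1:**
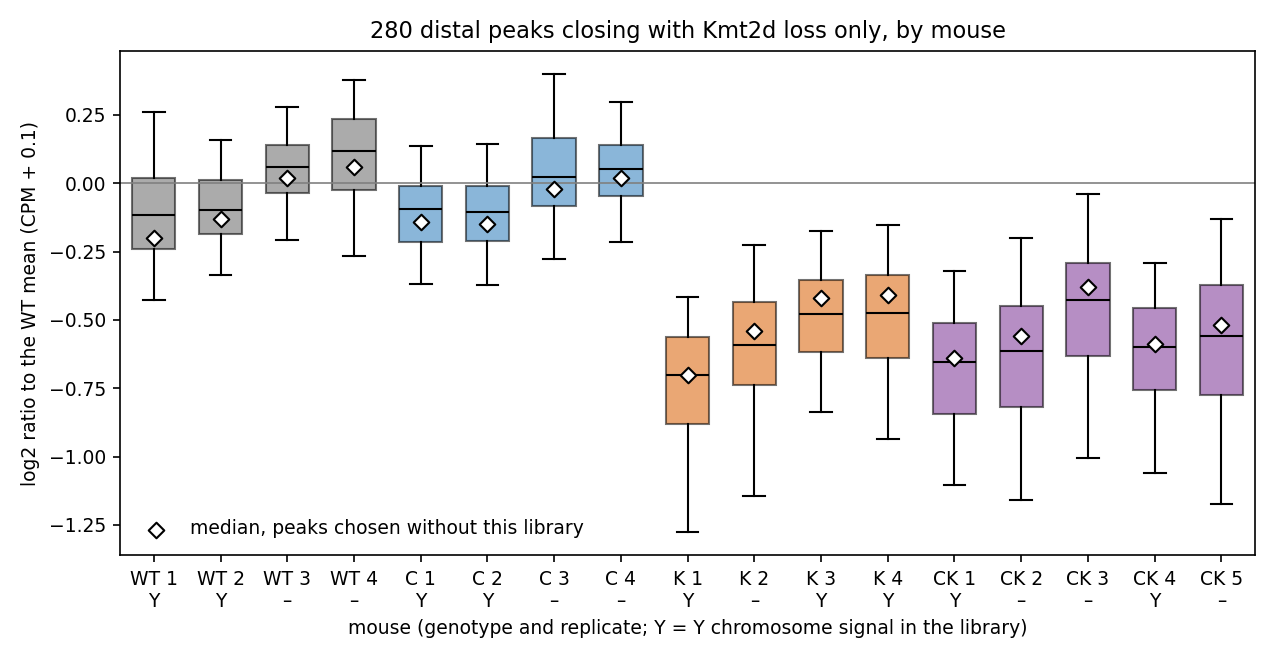
Each box holds the log2 ratio of the 280 members to the WT mean (CPM plus 0.1) in 1 mouse (line median, box quartiles, whiskers 5th and 95th percentiles), and diamonds are the medians of peaks chosen without that mouse. The K and CK medians lay between -0.70 and -0.43 for the members and between -0.70 and -0.38 when the mouse was left out of the choice, below all WT and C mice in both. For K and CK mice left out, the WT mice stayed in the choice.

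The libraries with and without Y signal differed within WT and C. WT and C mice with Y signal had medians of -0.11 to -0.10, and those without had 0.02 to 0.12. Within the 9 libraries with Y signal, the median ratio of the members was -0.44 in K, -0.53 in CK and -0.01 in C against WT of the same kind, and within the 8 without it was -0.66, -0.60 and -0.02, with a single K mouse. The rule found 174 peaks in the libraries with Y signal alone, and in the libraries without it these peaks had medians of -0.56 in K, -0.46 in CK and -0.02 in C, where all eligible peaks had -0.13, -0.08 and 0.00. Of the 174, 91 were at -0.4 or less in both K and CK in the other libraries, against 7.42% of eligible peaks, and 58 had C within 0.1 of WT. In the other direction, 493 peaks chosen without Y signal had medians of -0.23, -0.34 and -0.03 in the libraries with it, where all eligible peaks had -0.01, -0.05 and 0.03. Of the 493, 97 were at -0.4 or less in both K and CK there, against 3.38% of eligible peaks, and 192 had C within 0.1 of WT. So the loss in K and CK was present in both kinds of library, whereas the single peaks that met the rule largely changed, with 64 and 107 of the 280 members meeting it within each. Whether the sex of the mice or another property of these libraries moved with the WT level was not tested.

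The pattern was asymmetric between the 2 genes under the same thresholds. The mirror rule, C and CK at -0.4 or less with K within 0.1 of WT, found 11 peaks, and the rule for loss in CK alone with C and K within 0.1 found 9. The mirror rule had fewer peaks to draw on. Whatever the other ratios, 322 eligible peaks (1.42%) were at -0.4 or less in C, against 1355 (5.97%) in K and 1781 (7.85%) in CK. K alone at -0.4 or less with C and CK within 0.1 gave 11 peaks. Opening of 0.4 or more in both K and CK with C within 0.1 was seen at 31 peaks. Loss in both K and CK with any value of C was met by 923 eligible peaks, of which 280 (30.3%) had C within 0.1 of WT, 421 had C below that range but above -0.4, 147 had C at -0.4 or less and 75 had C above 0.1. Over all eligible peaks 55.4% had C within 0.1. The members therefore formed the part of a larger group of K and CK losses where C was nearest to WT, and the C range of the rule cut through this group and not around it. The median C ratio of the 923 peaks was -0.16. Within the C range of the rule, C was below 0 at 189 of the 280 members (67.5%), against 44.9% of eligible peaks. Choosing losses against the same WT mice favours peaks high in WT, which lowers their C ratios too. The 44.9% is free of this choice and of the C range, so the shares are not like for like. Whether C was lowered at the members was not tested.

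**Figure D2:**
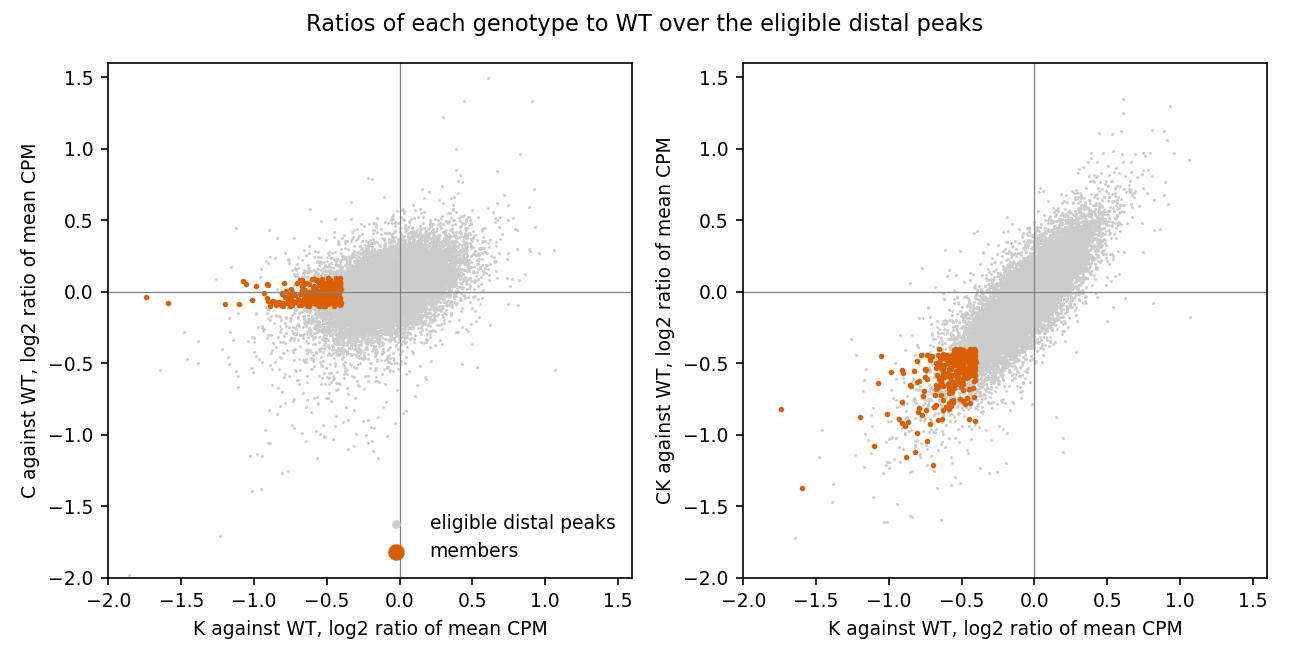
Log2 ratios to WT over the 22696 eligible distal peaks (grey) and the 280 members (orange), with K on the x axis and C (left) or CK (right) on the y axis, and 4 and 3 eligible peaks outside the axes in the left and right panels. Members filled a band with no gap to the surrounding peaks in either panel.

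Among the members the K ratio ran from -1.74 to -0.40 with quartiles at -0.64 and -0.47, and the CK ratio from -1.37 to -0.40 with the same quartiles. CK was below K at 151 of 280 members (53.9%), and the median difference CK minus K was -0.01. Most losses were modest, with both ratios no lower than -0.6 at 141 members and both below -1 at 2, the peaks nearest to Grik3 and Setd3 (the latter chosen after its values were seen). Members just inside and just outside the thresholds had much the same levels. The 3 members nearest to the K threshold had 4.65, 4.95 and 11.7 CPM in WT against 3.50, 3.72 and 8.84 in K (nearest genes Zfp397, Hesx1 and Snx30), and the 3 peaks just outside it had 4.85, 10.6 and 16.2 CPM in WT against 3.65, 7.99 and 12.2 in K (Islr2, Med27 and Sh3pxd2a). At the CK threshold the 3 members inside had 18.5, 3.46 and 5.17 CPM in WT against 14, 2.59 and 3.89 in CK (Tmem135, Mapk3 and Tgfa), and the 3 outside had 15.3, 5.07 and 3.29 against 11.6, 3.82 and 2.47 (Fars2, Vmn2r96 and Lrig2).

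In edgeR's quasi-likelihood test over all 65483 peaks, 89 of the 280 members were lost in K at an adjusted p under 0.01, where 0.828% of all peaks were, and 171 were lost in CK, where 3.3% of all peaks were. The test used the same contrasts as the choice, so these counts only say how many members were also called, and 82 members were called in both (0.669% of all peaks). The K count rested on single libraries and was 18 without K replicate 1, 49, 56 and 50 without K replicates 2, 3 and 4, and 55, 33 and 21 without WT replicates 2, 3 and 4, while the CK count was 111 and 90 without WT replicates 3 and 4. The remaining members lay on the chosen side without passing the test, 102 of them in neither contrast. At 109 members no K or CK mouse reached the lowest WT or C mouse, a pattern of 0.906% of all peaks that the choice also favoured. Against WT, 0 members were called in C by edgeR, where 0.16% of all peaks were called in either direction. At an unadjusted edgeR p under 0.05 there were 0 members, against 8.9% of all peaks, and DESeq2 called 0 members and 180 of all peaks. The C range of the rule fixed these counts in large part. The typical standard error in C was 0.14, wider than the C range of 0.1, so small differences from WT could not be seen at single members. Between CK and K, 0 members were called by edgeR, where 0.00916% of all peaks were. DESeq2 called 0 members and 38 of all peaks. At an unadjusted edgeR p under 0.05 there were 15 of 280 members, against 7.35% of all peaks. A typical member had an edgeR log2 fold change between CK and K of -0.02 with a standard error of 0.14, so smaller differences between the 2 genotypes could not be seen at single members.

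The 10 largest losses among members whose K and CK mice all lay below the WT and C mice were nearest to genes of varied function. The peak nearest to Grik3, a kainate receptor subunit of neurons, had 6.32, 7.09, 7.38 and 6.78 CPM in the WT mice and 6.64, 5.49, 6.30 and 7.61 in the C mice. It had 2.39, 2.62, 1.96 and 1.90 CPM in the K mice and 2.40, 2.44, 2.60, 2.50 and 3.09 in the CK mice, log2 ratios of -1.59 and -1.37. This intergenic peak lay 8648 bp from the TSS of Grik3 and had no overlap between the K and CK mice and the others. The peak 63151 bp from Vps8, a subunit of the CORVET complex that tethers early endosomes, had 14.2 ± 1.03 CPM in WT, 13.5 ± 1.45 in C (SD, n = 4 each), 7.69 ± 0.934 in K (SD, n = 4) and 6.35 ± 2.42 in CK (SD, n = 5). Its CK mice were spread from 4.35 to 10.4 CPM, with replicate 3 the highest.

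The other 8 peaks of this group had log2 ratios of -0.70 to -1.01 in K and -0.84 to -1.21 in CK. Arpc2, a subunit of the ARP2/3 complex that branches actin filaments, had a member in its own intron, with 6.68 ± 0.896 CPM in WT, 6.67 ± 1.10 in C (SD, n = 4 each), 3.96 ± 0.594 in K (SD, n = 4) and 3.19 ± 0.734 in CK (SD, n = 5). The intronic peak of Susd6, a membrane protein, had 9.77, 10.8, 11.1 and 14.2 CPM in the WT mice against 7.01, 7.25, 6.72 and 6.76 in the K mice and 5.71, 4.72, 7.66, 5.96 and 5.89 in the CK mice. Its C mice had 10.5 to 11.9 CPM, within the WT range. Bin2, a membrane-curving protein of leukocytes, had an intronic member with 3.13 ± 0.751 CPM in WT, 2.92 ± 0.599 in C (SD, n = 4 each), 1.75 ± 0.303 in K (SD, n = 4) and 1.70 ± 0.285 in CK (SD, n = 5). The remaining 5 peaks were nearest to Naa25, a subunit of the NatB acetyltransferase that modifies protein N termini, to Psapl1, to Eci2, an enzyme of fatty acid oxidation, to Parm1 and to Nup210l. The Eci2 and Parm1 peaks lay 181181 and 207332 bp from those genes, with noncoding genes or pseudogenes closer by, so the gene name marks a position and not a target.

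**Figure D3:**
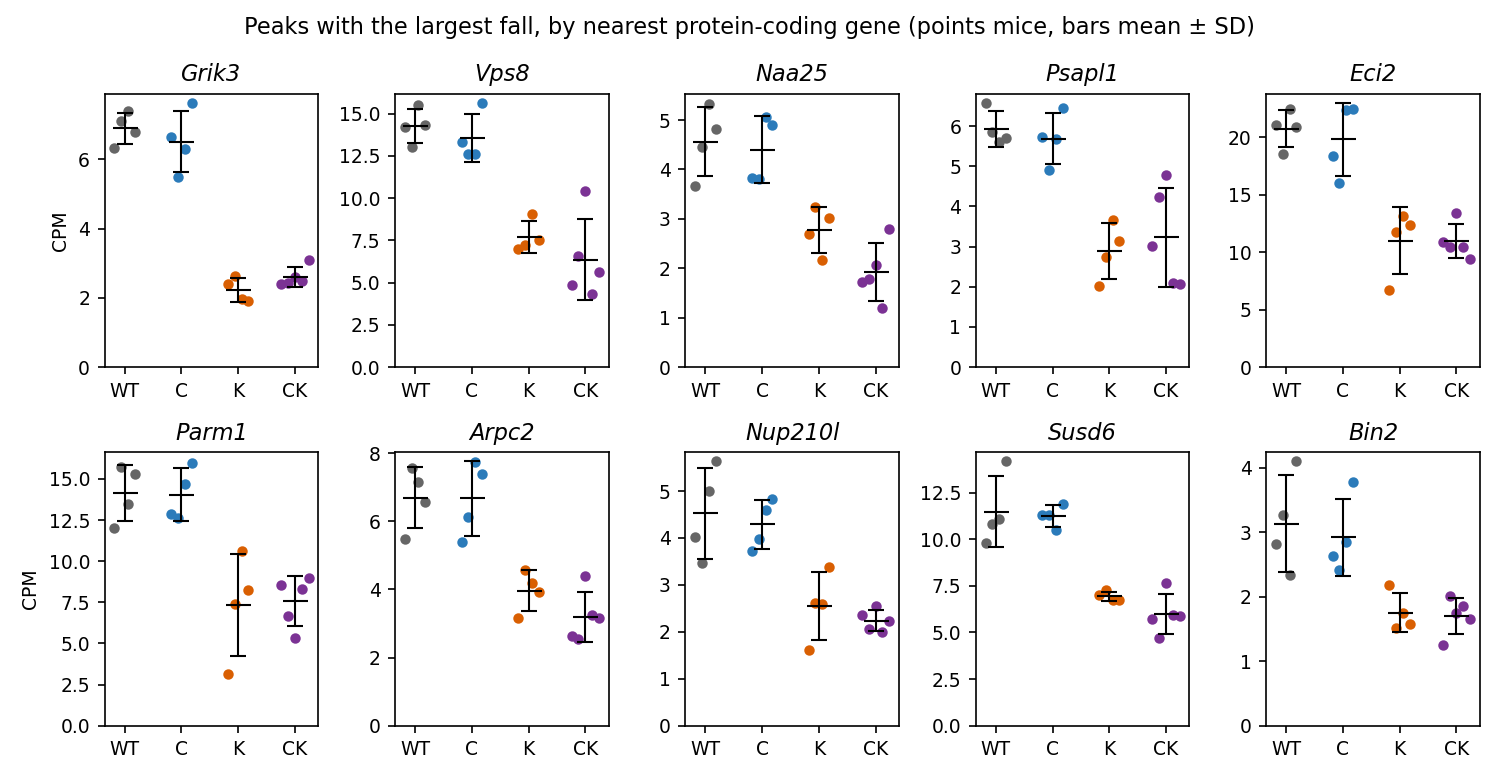
CPM of the 10 members with the largest loss among those where all K and CK mice lay below all WT and C mice. The y axis starts from 0, with points for mice and bars for mean ± SD (n = 4 WT, 4 C, 4 K and 5 CK). By this choice all K and CK mice lie below all WT and C mice in each panel, and the C mice overlap the WT mice.

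The 5 most accessible members had smaller losses on the log2 scale than those 10, which were chosen for the size of their loss. The intronic peak of Adap1, a GTPase-activating protein for ARF6 that binds phosphoinositides, had 58.3, 57.3, 57.7 and 57.5 CPM in the WT mice and 55.8, 53.7, 54.9 and 61.3 in the C mice. It had 40.6, 40.0, 48.5 and 42.4 CPM in the K mice and 41.2, 39.2, 44.0, 44.9 and 43.0 in the CK mice, ratios of -0.43 and -0.44. The peak nearest to Lax1, a membrane adaptor that restrains lymphocyte receptor signalling, had 47.3 ± 2.46 CPM in WT, 49.1 ± 5.30 in C (SD, n = 4 each), 35.6 ± 6.29 in K (SD, n = 4) and 33.9 ± 1.41 in CK (SD, n = 5). Both peaks kept the K and CK mice apart from the others. Next came intronic peaks of Myh9, the heavy chain of non-muscle myosin, at 26.2 ± 1.34 CPM in WT against 18.8 ± 1.45 in K (SD, n = 4 each), of Wdr37 at 25.5 ± 1.63 against 18.1 ± 3.00, and of Coro1c, an actin-binding coronin, at 24.9 ± 1.16 against 16.8 ± 1.03. Their CK means were 18.1 ± 2.07, 15 ± 2.08 and 15.3 ± 2.17 CPM (SD, n = 5).

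Several genes had more than 1 member. The 280 members had 252 nearest protein-coding genes, and 22 of these genes had 2 or 3 members, 50 members in all. Of the 22, the genes and peaks named in this paragraph were chosen after their values were seen. Smad3, which carries transforming growth factor beta signals to the nucleus, had 3 intronic members among its 9 eligible peaks, over 33122 bp, with mean ratios of -0.57 in K and -0.45 in CK, and its other eligible peaks had a median of -0.51 in K. Its strongest member had 28, 23.3, 23 and 24.3 CPM in the WT mice and 21.4, 22.1, 25.3 and 26.3 in the C mice. The K mice had 16.6, 16, 17.2 and 15.2 CPM there and the CK mice 18.3, 19.5, 20.1, 16.7 and 14.4, all below the other mice. Lcp2, the adaptor SLP-76 of antigen receptor signalling in T cells and myeloid cells, had 2 nearby members among 6 eligible peaks, both in introns of 4930469K13Rik, and the stronger had 19.2, 20.5, 17.4 and 19 CPM in WT against 10.7, 11.7, 12.1 and 9.30 in K. In CK that peak had 8.97, 14.7, 12.8, 9.61 and 7.89 CPM and in C 18, 19.2, 17.5 and 19.3. Hs1bp3, Setd3, Sfxn5, Susd6 and Vps13d also had 3 members each. A peak in an intron of Hydin had the lowest K ratio of all members (-1.74), with 3.92, 4.35, 2.90 and 4.76 CPM in WT and 1.14, 1.28, 1.32 and 0.74 in K, but 1.82, 2.01, 2.65, 1.15 and 3.43 in CK, so that CK overlapped WT.

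Members were found on all 19 autosomes and were mostly intronic. By annotation 183 of 280 members (65.4%, 95% Wilson interval 59.6 to 70.7) lay in introns against 55.6% of eligible peaks, 86 (30.7%, 25.6 to 36.3) were intergenic against 38.4%, and 11 (3.93%, 2.21 to 6.90) overlapped exons against 5.99%. The median distance to the nearest TSS was 10629 bp, against 8528 bp over eligible peaks, and 67 members (23.9%, 19.3 to 29.3) lay within 5 kb of one against 31.5%. These intervals cover counting error only, and members near each other are not independent. By chromosome the share of eligible peaks that were members ran from 0.741% on chromosome 3 to 1.97% on chromosome 12 (20 of 1016, 1.28 to 3.02), and 55 members had another within 100 kb. No member lay within 1 Mb of Kmt2d, and within 10 Mb 4 of 249 eligible peaks were members (1.61%, 0.626 to 4.06). Around Crebbp it was 2 of 157 within 10 Mb (1.27%, 0.35 to 4.53). Members were about as long as other distal peaks, at a median of 1159 against 1110 bp, and about as rich in GC, at 46.3% against 46.8%, with a lower CpG content (observed over expected 0.174 against 0.217) and a WT level of 6.82 against 8.09 CPM. The 11 peaks of the Crebbp mirror pattern had a GC content of 47.7% and a distance of 10473 bp, and 4 of them (36.4%, 15.2 to 64.6) were intronic.

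Motifs were searched on both strands of the 300 bases at each peak centre. TGTTTAC, the forkhead sequence bound by FOXO and FOXP factors, was found in 24 members (8.57%, 95% Wilson interval 5.83 to 12.4) against 4.37% of eligible peaks. TGCAAAT, the octamer bound by OCT2 with its coactivator OCA-B, was found in 32 (11.4%, 8.21 to 15.7) against 8.02%, and CTATTTA, bound by MEF2 factors, in 18 (6.43%, 4.10 to 9.93) against 3.69%. For these 3 of 16 motifs the share of eligible peaks was below the interval of the members. For 2 it was above, since GGGCGG, bound by KLF and SP factors, was found in 7 members (2.50%, 1.22 to 5.07) against 8.51%, and AGGGGGC, part of the CTCF motif, in 5 (1.79%, 0.765 to 4.11) against 7.08%. The other 11 motifs had shares within the interval, among them the ETS sequence GGAAGT at 28.9% against 28.1%, the extended PU.1/SPIB sequence GAGGAAG at 18.6% against 17.9%, RUNX (TGTGGT) at 26.8% against 25.4%, AP-1 (TGANTCA) at 12.9% against 10.4% and the E-box CACCTG at 26.4% against 25.1%. EBF (CCCNNGGGA) was at 4.64% against 5.58%, IRF (GAAANNGAA) at 10.0% against 11.9%, GAS (TTCNNNGAA) at 6.79% against 8.62%, NF-kB (GGGANNTCC) at 3.57% against 3.43%, CRE (TGACGT) at 3.57% against 4.07%, and the E-box CAGCTG at 13.9% against 18.4%. The 2 ETS sequences share the letters GGAAG, so their matches overlap in part.

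The motif differences had the same direction within classes of GC content of equal size over the eligible peaks. In the low, middle and high class (114, 81 and 85 members) the forkhead share was 7.02%, 9.88% and 9.41% against 5.41%, 4.51% and 3.19% of eligible peaks. The octamer share was 14%, 8.64% and 10.6% against 10.8%, 7.88% and 5.41%, and the MEF2 share 7.02%, 8.64% and 3.53% against 5.46%, 3.28% and 2.34%. The KLF and SP sequence was found in 0%, 1.23% and 7.06% of members against 2.66%, 6.61% and 16.3%, and the CTCF sequence in 0.877%, 0% and 4.71% against 3.83%, 5.95% and 11.5%. Single classes rest on few matches. A match shows that the letters were there, not that a factor was bound. Of the 21 members named here by rule, Susd6, Wdr37 and Il9r held the octamer in this window, and none held the forkhead, MEF2 or KLF and SP sequence. Among the 11 Crebbp-pattern peaks 0 held the forkhead sequence and 2 the octamer. Among the 9 peaks with loss in CK alone it was 1 and 0. Both sets are too small to compare with the members.

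**Figure D4:**
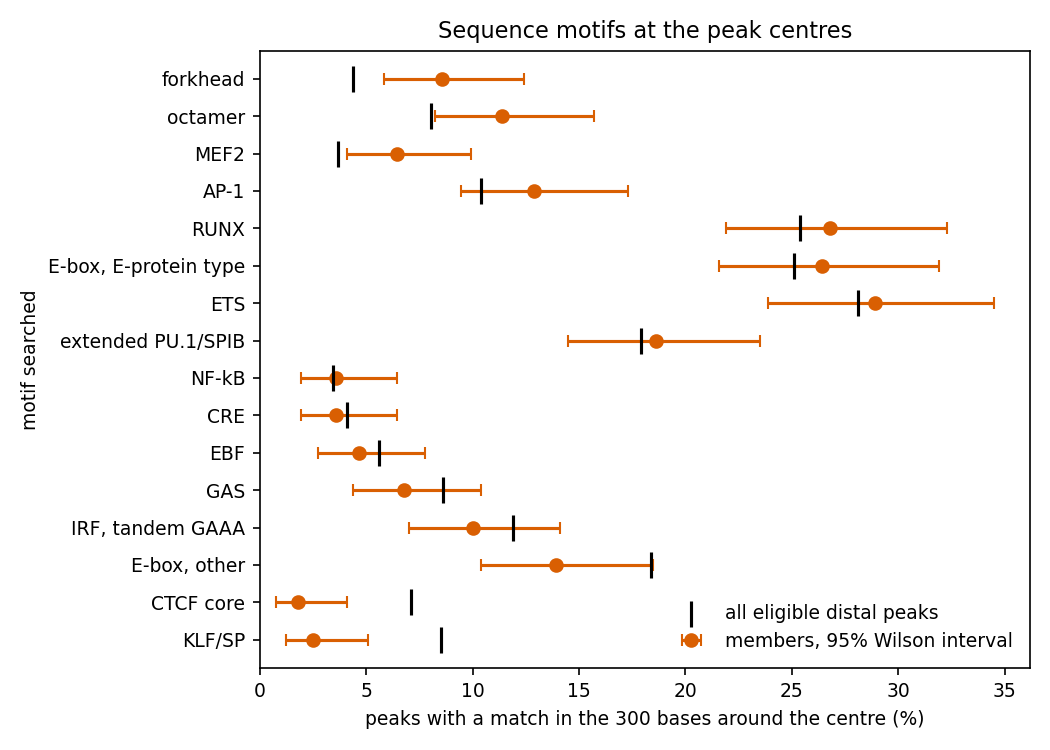
Share of peaks with a match to each of the 16 motifs in the 300 bases around the centre, for the 280 members (orange, with 95% Wilson intervals) and for the 22696 eligible peaks (black ticks). Forkhead, octamer and MEF2 ticks lie left of the members' intervals, and the CTCF and KLF/SP ticks lie right of them.

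Distal peaks close to a member were also lower in K and CK, and promoters of the nearest genes had medians near the WT level. The 96 eligible non-members within 5 kb of a member had median log2 ratios of -0.262 in K, -0.269 in CK and 0.018 in C, and the 838 within 50 kb had -0.130, -0.154 and 0.002. More than 500 kb from any member, 17780 eligible peaks had medians of -0.048, -0.052 and 0.017. By edgeR 40 of the 838 (4.77%) were lost in K and 113 (13.5%) in CK, against 1.27% and 5.74% of the distant peaks and the 0.828% and 3.3% of all peaks. The 301 promoter peaks of the members' nearest genes had medians of 0.010 in K, 0.007 in CK and 0.007 in C, where all 13074 promoter peaks had 0.051, 0.052 and 0.009. Of these 301, 4 (1.33%) were lost in K and 14 (4.65%) in CK, against 0.367% and 1.72% of all promoter peaks. Among the genes named by rule, the promoter signal was between -0.12 and 0.07 of WT on the log2 scale in K for Vps8, Naa25, Eci2, Nup210l, Arpc2, Bin2, Susd6, Adap1, Lax1, Myh9, Wdr37, Coro1c, Pik3ap1, Runx3 and Ifngr1. The promoter of Parm1 had 12.7 ± 1.65 CPM in WT against 8.40 ± 2.49 in K (SD, n = 4 each) and that of Rgs1 11.4 ± 1.81 against 9.13 ± 1.88, that of Il9r 3.01 ± 0.617 against 2.26 ± 0.641, and the Atf3 promoter was on the other side, at 32.8 ± 3.20 against 39.4 ± 2.42. In CK the log2 ratios of these promoters were -0.42 for Parm1, -0.28 for Rgs1, 0.04 for Il9r and 0.16 for Atf3, and in C they were 0.27, 0.05, 0.37 and 0.02.

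**Figure D5:**
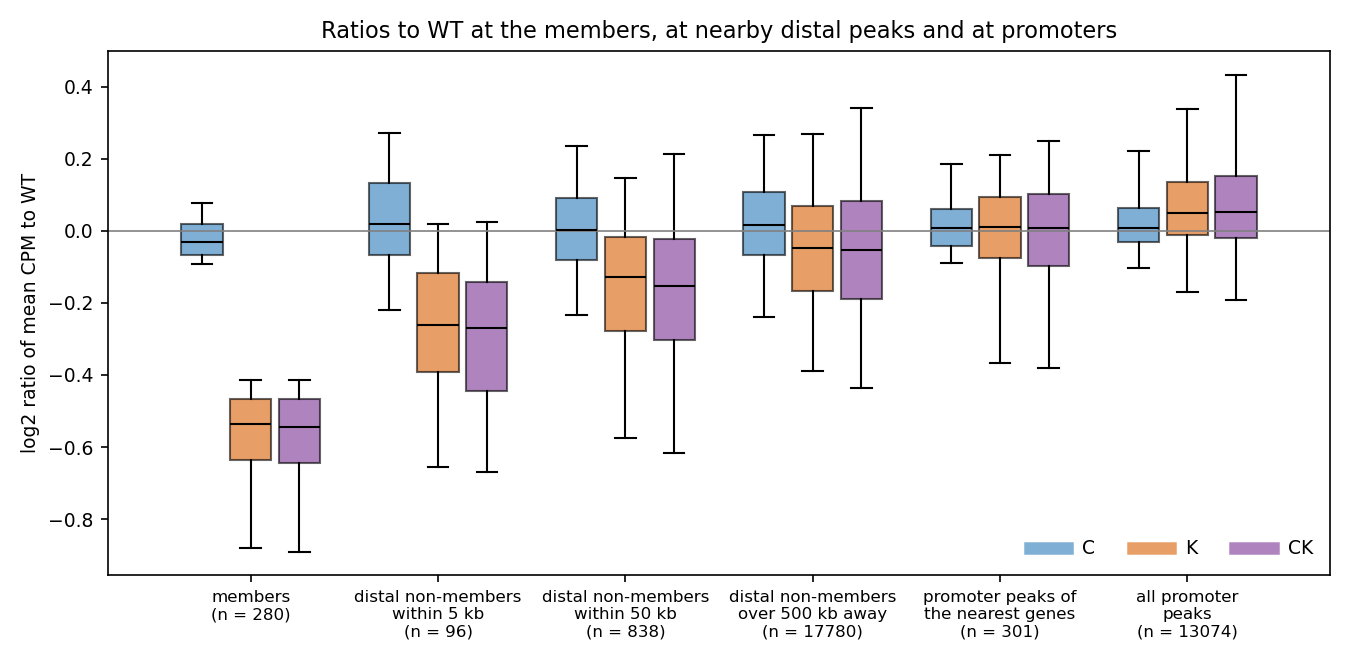
Log2 ratios of mean CPM to WT in C, K and CK (line median, box quartiles, whiskers 5th and 95th percentiles) at the 280 members, at eligible non-members by distance from the nearest member, and at promoter peaks within 1 kb of a protein-coding TSS. K and CK medians rise from about -0.54 at members to -0.262 and -0.269 within 5 kb and to near 0 at promoters, while C stays near 0.

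By gene, the lists of GC functions held members at the rate of all genes, and by peak at a lower rate. Of 188 genes with an eligible peak in 11 lists of GC functions, 6 had a member nearest to them (3.19%), where 252 of 8043 genes did over all (3.13%). Counted by peak, 6 of the 1320 eligible peaks of these genes were members (0.455%), against 1.23% of all eligible peaks. The lists of MHC class II presentation (11 genes with an eligible peak), memory B cell (14), plasma cell (12), AID and mutation repair (9) and coactivator and repressor genes (11) had 0 members. All eligible peaks of the MHC class II genes, 29 in number, had median ratios of -0.10 in K, -0.12 in CK and -0.03 in C. Over all eligible peaks these medians were -0.05, -0.06 and 0.02.

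The 6 listed genes each had 1 member. Runx3, 1 of 24 GC identity transcription factor genes with an eligible peak, had a member with 5.85, 6.36, 6.95 and 5.69 CPM in WT and 5.02, 5.76, 7.70 and 6.44 in C. That peak had 3.17, 3.24, 4.82 and 4.30 CPM in K and 3.89, 2.87, 4.77, 3.90 and 3.95 in CK, with no overlap between the 2 pairs of genotypes. Pik3ap1, which encodes the adaptor BCAP that links the B-cell receptor to PI3-kinase, was the 1 of 24 B-cell receptor signalling genes, and its peak had 8.01 ± 1.33 CPM in WT, 7.90 ± 0.933 in C (SD, n = 4 each), 5.17 ± 0.556 in K (SD, n = 4) and 5.27 ± 1.43 in CK (SD, n = 5), where CK replicate 3 (7.09 CPM) overlapped WT. Of 25 cytokine and JAK-STAT genes 2 had a member. Ifngr1, the ligand-binding chain of the interferon-gamma receptor, had 13.9 ± 1.04 CPM in WT, 14.6 ± 1.25 in C (SD, n = 4 each), 9.96 ± 0.597 in K (SD, n = 4) and 10.3 ± 2.10 in CK (SD, n = 5). Il9r, the interleukin-9 receptor, which was also the 1 of 30 GC exit and light zone genes, had an intronic peak with 10.4 ± 1.51 CPM in WT, 11 ± 3.14 in C (SD, n = 4 each), 7.48 ± 1.15 in K (SD, n = 4) and 7.78 ± 0.659 in CK (SD, n = 5). Atf3, an AP-1 family factor induced by stress and 1 of 16 such genes, had 6.99 ± 0.516 CPM in WT against 5.08 ± 1.25 in K (SD, n = 4 each) and 4.33 ± 0.684 in CK (SD, n = 5), and Rgs1, which dampens chemokine receptor signalling and was 1 of 22 migration genes, had 11 ± 1.6 against 8.22 ± 1.01 and 7.99 ± 1.59 CPM at a peak 80887 bp away. In Atf3, Il9r, Ifngr1, Pik3ap1 and Rgs1 at least 1 mutant mouse overlapped the range of WT and C.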

How the data were processed

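ATAC-seq libraries of 17 mice were analysed, and libraries of other B-cell stages were not analysed here. The deposited table holds raw fragment counts per consensus peak, which the authors made with the nf-core ATAC-seq pipeline 1.2.1 on mm10 and featureCounts 2.0.1. The table has 65483 peaks of median length 910 bp and no peak under 10 counts, and 0 columns were left out. Counts were divided by each library's total to give CPM, with 0.1 CPM added before log2 ratios of group means. All peaks were tested with edgeR 4.0.16 (quasi-likelihood test, Benjamini-Hochberg adjusted p under 0.01, R 4.3.3), checked on simulated data, with DESeq2 1.42.0 as an alternative. With 1 library per mouse, p-values measure the spread between mice. TSSs, gene parts and sequences came from GRCm38. The nearest gene is the protein-coding gene with the closest TSS. Shares have 95% Wilson intervals, which cover counting error only. Named peaks were the 10 lowest mean K and CK ratios without overlap between the mice, the 5 highest WT levels, up to 2 members per gene list by WT level, the 3 peaks on each side of both thresholds, and the targeted genes. Others are marked as chosen after their values were seen. The members and lists were chosen with earlier results of these data known. The alternatives were other scalings, pseudocounts, thresholds, TSS distances, filters, GC centring, a replicate block, leaving out each library and splitting by Y signal.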

Additional observations from a re-analysis of the deposited data

How the results depend on the processing

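The number of members (280) followed the thresholds. It was 641 with K and CK at most -0.3, 124 with at most -0.5, 515 with C within 0.2, 468 with a WT mean of at least 1 CPM and 183 with at least 5 CPM. It was 174 with libraries that carry Y signal alone and 493 with the others alone, and 237 to 325 without single libraries. The medians of the 280 members chosen from all libraries were also read with each library left out. They were -0.58 to -0.50 in K, -0.58 to -0.52 in CK and -0.05 to 0.02 in C. The K median of these members was -0.66 in the libraries without Y signal. The members were not chosen again for these medians, so the choice itself favoured a narrow range. Members lost in K (89, beside 542 of all 65483 peaks) numbered 195 at an adjusted p under 0.05, beside 1845 of all peaks, and 140 by DESeq2, beside 953. They numbered 18 (without K replicate 1) to 100 without single libraries. For CK (171, beside 2158 of all peaks) leaving out single libraries gave 90 (without WT replicate 4) to 178, and the cause was not tested. With Y signal as a factor, an alternative chosen after seeing the data, 84 and 208 were lost in K and CK, beside 516 and 2712 of all peaks. Replicate numbers were shared between genotypes, and 9 of 24 same-numbered pairs had deviations correlated over 0.1 (range -0.02 to 0.27), so that the numbers were not taken as pairs. Still, 24 of 48 comparisons were best with their own number, and the rate without pairing was not worked out. In WT and C the libraries with Y signal had the same replicate numbers, so pairing and Y signal cannot be told apart there. With the replicate block 147 members were lost in K and 186 in CK, beside 1172 and 3440 of all peaks, so the calls rose over all peaks too. Between CK and K 0 members were called by edgeR or DESeq2 in the 20 alternatives. In the main fit 15 of 280 were at an unadjusted p under 0.05, against 7.35% of all peaks. Of the named peaks' ratios, 754 moved by less than the spread between mice, 2 moved by more and none reversed. The 754 include settings that left out a library of a genotype outside the ratio, where that ratio could not move. Over whole peaks, MEF2 fell inside the members' interval (19.3% against 15.4% of eligible peaks), while PU.1/SPIB (54.6% against 47.8%), RUNX (72.1% against 65.0%) and EBF (13.6% against 19.8%) fell outside it, and the other 4 motifs outside it kept their direction. At 36 to 1212 fragments per WT library, the typical standard error of 0.14 limits single members.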
